A study of Homo sapiens with 19 samples.

Results

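Lysosomes are acidic organelles in which hydrolases break down protein, glycogen, glycosaminoglycans and lipids, and in macrophages they also digest what the cell has engulfed. A proton pump, the V-ATPase, keeps the lumen acidic, soluble proteases, glycosidases and sulfatases work inside it, and membrane glycoproteins, transporters and channels form its wall. Inherited loss of many of these enzymes causes a storage disease, in which the undigested substrate piles up. The genes described here are 37 of the 31033 gene names on the array, chosen by name: 8 proteases, 10 glycosidases, 4 sulfatases, 4 genes of lipid catabolism and its activator proteins, 7 membrane proteins and 4 V-ATPase genes. All 37 names were found on the array.

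The RNA came from THP-1 cells, a human monocytic leukaemia line, which had been differentiated into macrophage-like cells with 30 nM PMA, an activator of protein kinase C. Every flask received PMA and was then rested. Treated flasks then got 0.1 mM vit C, and untreated (UT) flasks got none. Total RNA was measured at 8, 24, 48 and 96 h on 19 Agilent 1-colour arrays, with 2, 3, 2 and 3 arrays of UT cells and 3, 2, 2 and 2 arrays of vit C-treated cells at these times. Per the methods, replicates were separate flasks of this line, so p-values measure the spread between flasks, and samples of lower RNA integrity were not hybridized. There was no undifferentiated group, so a change over time is a change within PMA-treated cells.

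A value is the log2 processed signal of a gene's brightest probe minus the 75th percentile of its array, so 1 unit is a 2-fold difference. Of the 37 genes, 36 were well above background on all 19 arrays, and CD63 on 18, since its spot on the vit C 48 h replicate 1 array was marked as an outlier and left out. The CD63 level at 48 h with vit C therefore rests on 1 array. No spot of these genes was saturated. The 75th percentile itself ranged from 290.2 to 902.3 signal units between arrays. Of the macrophage genes checked, CSF1R, TYROBP, FCER1G and CD14 were well above background on 19 arrays and LYZ on 18, whereas the mannose receptor MRC1 was on 0. Several markers moved with time in UT cells. At 96 h against 8 h, 5 of the 11 macrophage genes were called, with CD14 (4.22), AIF1 (2.14) and CD163 (1.35) higher and LYZ (-1.46) and SPI1 (-1.06) lower, while the summed log2 level of the list was 8.96 to 9.14 at 8 h and 9.16 to 9.19 at 96 h. Of markers of other cells, DCN of fibroblasts was higher (5.30) and VWF of endothelium lower (-2.32), while COL1A2, CDH5, CDH1 and CD3D were well above background on 0 arrays. The summed level of the 5 fibroblast genes was -4.09 to -4.05 at 8 h, -0.50 to 0.38 at 96 h in UT cells and 2.18 to 2.35 at 96 h with vit C. Of 5 loading genes B2M was called (1.19). The part of these changes in the lysosomal results was not tested. In bulk RNA, fewer cells expressing a gene and less RNA per cell cannot be told apart.

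The arrays lay on 4 slides. All UT arrays of 8, 24 and 48 h and UT 96 h replicate 1 were on slide 1, and the other 2 UT 96 h arrays shared slide 2 with the vit C arrays of 8 h, 24 h and 48 h replicate 1. Vit C 48 h replicate 2 was alone on slide 3. Both vit C 96 h arrays were on slide 4, scanned on another day, so at 96 h slide, scan day and treatment cannot be told apart. At 8, 24 and 48 h no UT array shared a slide with a vit C array, so slide goes with treatment there too. A fit with slide as a fixed block reads the offset between slides 1 and 2 from UT 96 h replicate 1 against replicates 2 and 3. In that fit the UT 96 h level rests on replicate 1, and the vit C 48 h level on 1 array (replicate 1, except for CD63). UT 96 h replicate 3 stood apart from its group: its nearest array was vit C 96 h replicate 2 (r = 0.9694 over detected genes), and its GAPDH value was 6.49 against 7.6 and 7.77 on the other 2 UT 96 h arrays. For the comparisons of vit C with UT cells, the genes that passed without it are given too. The share of all gene names was not counted in that fit, so these genes are not set against a background.

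Many lysosomal genes carry a palindrome built on CACGTG close to their start, the element bound by TFEB and related factors. RefSeq promoter windows of GRCh38.p14, 250 bases before to 50 after the start, were matched by symbol for 25 of the 37 genes, with the first listed window used where a gene had several. TCACGTGA was present in 5 of these 25 windows (20%), against 1.04% of 27305 genes, and CACGTG in 8 of 25 (32%), against 7.43%. Both words read the same on either strand, and each TCACGTGA also counts as a CACGTG. The GC box core GGGCGG, searched on both strands, was in 21 of 25 (84%), against 44.6%. The 80 bases before the start are shown for the 6 genes with CACGTG in them, since CTSA, GAA and LAMP1 are among the genes that the tests below pick out and CTSD, MCOLN1 and ATP6V0D1 are not. Capitals mark TCACGTGA, or CACGTG where the longer word is not complete.
CTSA, chr20:45891255-45891334, plus strand: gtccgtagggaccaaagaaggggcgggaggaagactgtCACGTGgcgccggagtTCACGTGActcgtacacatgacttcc
GAA, chr17:80101501-80101580, plus strand: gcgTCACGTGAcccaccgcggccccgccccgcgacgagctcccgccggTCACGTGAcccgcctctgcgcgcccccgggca
LAMP1, chr13:113297159-113297238, plus strand: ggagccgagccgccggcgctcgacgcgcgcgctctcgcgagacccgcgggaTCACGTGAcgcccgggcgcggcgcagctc
CTSD, chr11:1763928-1764007, minus strand: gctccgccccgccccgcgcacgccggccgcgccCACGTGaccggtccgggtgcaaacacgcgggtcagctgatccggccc
MCOLN1, chr19:7522544-7522623, plus strand: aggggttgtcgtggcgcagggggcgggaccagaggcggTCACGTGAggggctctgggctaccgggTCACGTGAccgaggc
ATP6V0D1, chr16:67481158-67481237, minus strand: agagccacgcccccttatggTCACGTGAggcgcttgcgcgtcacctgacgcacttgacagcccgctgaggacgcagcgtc
CTSA, which protects and stabilises other lysosomal enzymes, and GAA, which degrades glycogen, held 2 CACGTG each in these 80 bases, as did the calcium channel gene MCOLN1. A match is a run of letters and was not tested as a binding site.

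The first comparison asked how lysosomal genes moved with time after differentiation in UT cells. PSAP, the precursor of the saposins that help degrade sphingolipids, and CD68, a macrophage glycoprotein of endosomes and lysosomes, fell, while ASAH1, the acid ceramidase, rose. GAA fell and IDS, the iduronate sulfatase, rose at 48 h. Over the 4 time points, 7 of the 37 genes (18.9%) varied by at least 1 log2 unit at a limma F-test q of at most 0.05, against 19.9% of all gene names and 25.5% of those well above background throughout any group (detected genes). The 7 were GAA, IDS, SGSH, ASAH1, PSAP, CD68 and SCARB2. With slide as a fixed block the 96 h level rests on UT 96 h replicate 1. In that fit GAA, IDS, PSAP and SCARB2 were called, as was MANBA, a beta-mannosidase, while SGSH, ASAH1 and CD68 were not. In each pairwise comparison a gene was called at a log2 change of at least 1 and q of at most 0.05.

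At 24 h against 8 h, 0 of the 37 genes were called, where 2.14% of all gene names were, and 5, all higher, had an unadjusted p of at most 0.05 (13.5%, against 15.7% of all names in either direction). At 48 h, 3 were called (7.07% of all names), IDS, GAA and PSAP, and at 96 h also 3 (12.4%), ASAH1, PSAP and CD68. Leaving size aside, 11 of the 37 (29.7%) passed q at 96 h, 5 higher and 6 lower, where 17.8% of all names and 23% of detected genes passed. The median change of the 37 at 96 h was -0.10, with 14 higher and 23 lower, against -0.05 over 23157 detected genes. With slide as a fixed block, where 96 h rests on UT 96 h replicate 1, it turned to 0.06, with 19 higher and 18 lower, against -0.07. The 6 that were lower were CTSA, GAA, PSAP, CD63, CD68 and SCARB2, and the 5 that were higher were CTSB, MANBA, IDS, ASAH1 and GM2A. This count was lower without single 8 h arrays, with slide as a block and by the methods' t-test, where 0 passed. Without either UT 8 h array, or with slide as a fixed block, most of the 11 were lost. In that block the 96 h level rests on UT 96 h replicate 1, and the changes were 1.36 for MANBA and -1.48 for PSAP. PSAP was the gene that passed with every array left out, while CTSA, CTSB and MANBA were lost with 14, 12 and 16 of the 19 left out in turn.

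PSAP was at 6.08 and 5.69 on the UT 8 h arrays, at 5.41, 5.81 and 6.10 at 24 h, at 4.73 and 4.38 at 48 h, and at 4.40, 4.37 and 3.35 at 96 h. All 5 later arrays, of 48 and 96 h, lay below all 5 earlier ones. PSAP fell by 1.33 (SE 0.35, limma q = 0.0272) at 48 h and by 1.84 (SE 0.32, q = 0.000849), or 3.59-fold, at 96 h. CD68 went the same way, from 3.89 and 3.34 at 8 h and 3.15, 3.69 and 3.82 at 24 h to 2.48 and 2.12 at 48 h and 2.40, 2.69 and 1.22 at 96 h. It fell by 1.51 (SE 0.39, q = 0.0141) at 96 h, and the change of -1.31 at 48 h did not pass (q = 0.0751). With slide as a fixed block the CD68 change at 96 h, then resting on UT 96 h replicate 1, was -1.21 and not called. Without UT 8 h replicate 1 it was not called either.

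GAA stood at 5.35 and 5.58 at 8 h, then 5.41, 5.16 and 5.25 at 24 h, 4.42 and 4.37 at 48 h, and 4.60, 4.89 and 4.04 at 96 h. Its 48 h and 96 h arrays did not overlap those of 8 h. GAA fell by 1.07 (SE 0.24, q = 0.011) at 48 h, within slide 1, and its change of -0.96 at 96 h (SE 0.22, q = 0.00706) passed q but not the size. At 48 h the calls of GAA and PSAP were lost without UT 8 h replicate 2 or either UT 48 h array, and then IDS alone was called, and that of PSAP also without UT 8 h replicate 1.

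SGSH, the sulfamidase of heparan sulfate breakdown, was at 2.48 and 2.56 at 8 h, 2.39, 2.56 and 3.24 at 24 h, 2.15 and 1.94 at 48 h, and 1.70, 2.02 and 0.52 at 96 h. The lowest value is that of UT 96 h replicate 3, and the change of -1.11 at 96 h missed q (q = 0.0598). SCARB2, the receptor that carries glucocerebrosidase to lysosomes, had the lowest F-test q of the list (0.000142). Its group means ran 3.80 ± 0.01, 4.39 ± 0.14, 3.41 ± 0.10 and 3.24 ± 0.21 (SD, n = 2, 3, 2 and 3), a peak at 24 h followed by lower values. CD63, a tetraspanin, held near 8.60 ± 0.10, 8.76 ± 0.17 and 8.66 ± 0.00 up to 48 h and stood at 7.77 ± 0.16 at 96 h, where its change of -0.83 passed q (q = 0.00497) but not the size.

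ASAH1 was at 2.19 and 1.84 at 8 h, 1.99, 2.23 and 2.09 at 24 h, 1.59 and 1.73 at 48 h, and 3.36, 2.46 and 3.70 at 96 h. Only the 96 h arrays lay above the rest. The rise at 96 h was 1.16 (SE 0.29, q = 0.0127). It was not called without UT 96 h replicate 3, the highest of the 3, nor without UT 8 h replicate 2, nor with slide as a fixed block. In that block the change was larger, 1.34, but rests on UT 96 h replicate 1. GM2A, the activator that presents GM2 ganglioside to hexosaminidase A, was flat at -0.43 and -0.37, -0.34, -0.49 and -0.44, and -0.42 and -0.43 from 8 to 48 h, and at 0.22, -0.04 and 0.78 at 96 h. All 3 arrays of 96 h were above the other 7, by 0.72 on average against 8 h (SE 0.21, q = 0.0268).

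IDS followed another course: 2.36 and 2.47 at 8 h, 3.35, 2.91 and 2.81 at 24 h, 3.66 and 3.77 at 48 h, and 3.01, 3.05 and 3.39 at 96 h. It peaked at 48 h, where it rose by 1.3 (SE 0.21, q = 0.000869), and every later array was above the 8 h arrays. IDS has 5 probes, whose changes at 48 h ran from 0.07 to 1.3, and their mean was not called. At 96 h its probes went opposite ways, and with their mean the q pass at 96 h was lost. NPC1, which exports cholesterol from the lysosome, was also highest in the middle, at -0.60 and -0.70, then -0.28, -0.01 and -0.33, then 0.01 and -0.11, and at 96 h -0.50, -1.05 and -0.53. Its 48 h change of 0.61 did not pass (q = 0.0937).

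**Figure D1:**
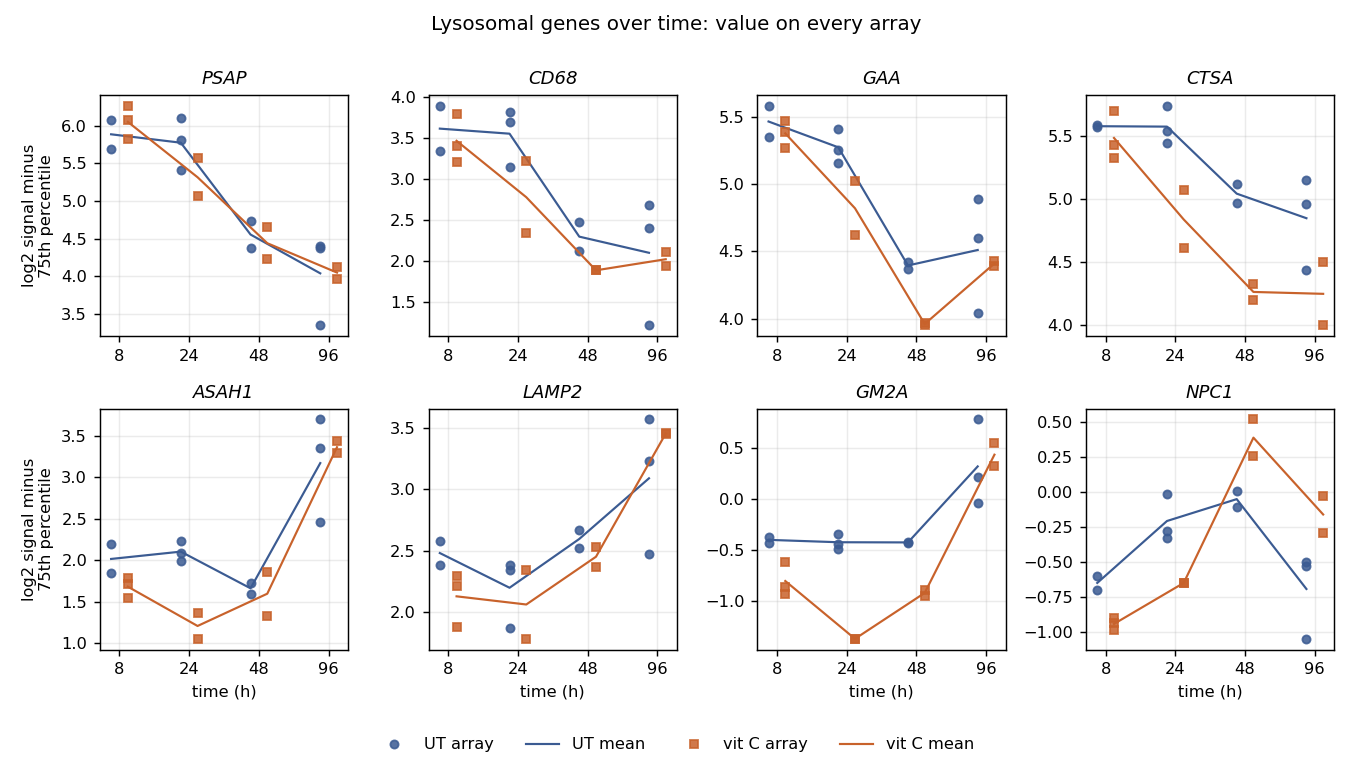
Normalized log2 signal (y axis, log2 signal minus the array's 75th percentile) of 8 lysosomal genes against time in h (x axis, not to scale), with a point for each array, UT circles and vit C squares, and lines through the group means. PSAP fell in UT cells from 6.08 and 5.69 at 8 h to 4.40, 4.37 and 3.35 at 96 h, and ASAH1 was highest at 96 h in both arms.

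Among proteases, CTSB and CTSS, cysteine proteases of endosomes and lysosomes, of which CTSS processes the MHC class II chaperone, had positive changes at 96 h, and CTSA a negative one. CTSS was at 3.09 and 2.98 at 8 h, 3.46, 3.83 and 3.48 at 24 h, 3.35 and 3.38 at 48 h, and 3.73, 3.30 and 4.64 at 96 h. The 8 later arrays were all above the 8 h arrays, but the 96 h change of 0.85 did not pass (q = 0.0719). CTSA was at 5.57 and 5.59 at 8 h, 5.45, 5.54 and 5.74 at 24 h, 5.12 and 4.97 at 48 h, and 4.96, 5.15 and 4.44 at 96 h, and its 96 h change of -0.73 passed q (q = 0.0461) but not the size. That pass was lost with 14 of the 19 arrays left out in turn, with the mean of its probes and with a replicate block. It was also lost with slide as a random or a fixed block, with a change of -0.62 on UT 96 h replicate 1 in the latter. CTSB, at 5.43 ± 0.04 (SD, n = 2) at 8 h and 6.2 ± 0.43 (n = 3) at 96 h, passed q as well (change 0.77, q = 0.0404). With slide as a fixed block its change, on UT 96 h replicate 1, was 0.29 and did not pass. The CTSB pass was also lost with 12 of the 19 arrays left out.

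CTSZ, a carboxypeptidase with 1 probe, had the widest range of UT means among proteases. Its arrays read 2.38 and 2.09 at 8 h, 1.94, 1.03 and 2.22 at 24 h, 2.43 and 3.85 at 48 h, and 4.19, 2.36 and 1.96 at 96 h. Replicates of 96 h thus differed by more than the group means did, and no CTSZ change passed.

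The genes with the smallest range of UT means in their role had these values. CTSH, an aminopeptidase, was at 6.69 and 6.69, then 6.71, 6.75 and 6.90, then 6.56 and 6.49, and then 6.60, 6.66 and 6.32, a range of means of 0.26. PPT1, which removes palmitate from proteins, was at 8.39 and 8.79, then 8.89, 8.57 and 8.68, then 8.49 and 8.62, and then 8.71, 8.53 and 8.69, so that all time points overlapped. LAMP1, a main glycoprotein of the lysosomal membrane, was at 7.22 and 7.26, then 7.47, 6.99 and 7.05, then 6.89 and 6.83, and at 96 h 7.19, 6.90 and 7.17. The 48 h arrays of LAMP1 were the lowest of the 10. IDUA, the iduronidase, and ARSB, arylsulfatase B, were the glycosidase and the sulfatase with the smallest ranges, 0.20 and 0.54. IDUA was at -0.97 and -0.84, then -1.27, -1.01 and -0.72, then -0.76 and -0.85, and then -0.39, -0.59 and -1.78. ARSB was at -1.15 and -1.13, then -1.31, -0.87 and -0.77, then -0.60 and -0.61, and then -0.49, -0.48 and -1.37. Both had their lowest value on UT 96 h replicate 3.

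By q of the F test over time at any size, 13 of the 37 genes passed (35.1%), against 25.2% of all gene names and 32.5% of detected genes. None was among the 4 V-ATPase genes, whose ranges of means ran from 0.22 to 0.60. ATP6V1H, a regulatory subunit of the pump's catalytic sector, had the largest range and was at 4.27 and 4.71, then 4.62, 4.5 and 4.30, then 4.06 and 3.72, and then 4.00, 4.05 and 4.69. ATP6V0D1, of the membrane sector, had the smallest and was at 3.17 and 3.04, then 2.96, 3.48 and 3.54, then 3.35 and 3.22, and then 3.24, 3.46 and 3.01. For ATP6V0D1 the 96 h change was 0.13, with a 95% interval of -0.32 to 0.58, and for ATP6V1H -0.24, with an interval of -0.75 to 0.27. The 7 genes that also had a range of at least 1, a share below that of detected genes (25.5%), were 2 of 4 sulfatases, 2 of 4 genes of lipid catabolism, 2 of 7 membrane proteins and 1 of 10 glycosidases. Differences between roles were not tested.

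The second comparison repeated the time course in the vit C-treated cells, whose arrays are not shared with the UT course. PSAP and CD68 fell and ASAH1 rose here too, and CTSA fell and LAMP2, CTSS and GM2A rose. At 24 h against 8 h, 0 of 37 were called (4.28% of all gene names), and 2 higher and 4 lower had an unadjusted p of at most 0.05 (16.2%, against 17.2% of all names). At 48 h, 6 were called (16.2%, against 10.6%), with NPC1 higher and CTSA, CTSC, GAA, PSAP and CD68 lower. At 96 h, 8 were called (21.6%, against 21.1%), with CTSS, ASAH1, GM2A and LAMP2 higher and CTSA, SGSH, PSAP and CD68 lower. The 96 h arrays were on a slide of their own, so slide and scan day move with that time point.

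PSAP was at 6.07, 5.82 and 6.26 on the vit C 8 h arrays, at 5.57 and 5.06 at 24 h, at 4.65 and 4.23 at 48 h, and at 3.97 and 4.13 at 96 h. Each time point lay below the one before it without overlap. It fell by 1.61 at 48 h (SE 0.32, q = 0.00285) and by 2.0 at 96 h (SE 0.32, q = 0.000353). CD68 read 3.40, 3.21 and 3.79, then 3.22 and 2.34, then 1.89 and 1.89, and then 1.94 and 2.11, and it fell by 1.58 at 48 h (q = 0.0121) and by 1.44 at 96 h (q = 0.0139). Each of these CD68 calls was lost without either array of its later time point, and the 48 h call also with slide as a fixed block (-1.58, on vit C 48 h replicate 1). GAA read 5.27, 5.39 and 5.47, then 5.02 and 4.62, then 3.95 and 3.97, and then 4.43 and 4.39. The fall of 1.42 at 48 h (SE 0.22, q = 0.000439) stayed called under all 31 alternative settings, and at 96 h the change was -0.96 (q = 0.00542), short of the size.

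CTSA was at 5.43, 5.33 and 5.70 at 8 h, 5.07 and 4.61 at 24 h, 4.20 and 4.33 at 48 h, and 4.00 and 4.5 at 96 h with vit C. The 8 h arrays did not overlap any later ones. CTSA fell by 1.22 at 48 h (SE 0.23, q = 0.00235) and by 1.24 at 96 h (SE 0.23, q = 0.00141), where without vit C 96 h replicate 1 the change was -0.99 and missed the size. SGSH read 1.90, 1.71 and 2.32, then 1.83 and 1.14, then 1.3 and 1.31, and then 0.85 and 1.01. Its fall of 1.05 at 96 h had a q of exactly the limit (0.05) and was lost under 20 of 30 alternatives. CTSC, which activates granule proteases, fell by 1.02 at 48 h, and that call was lost without vit C 8 h replicate 2, without vit C 48 h replicate 1, with the replicate number as a block and with the mean of its probes.

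ASAH1 was at 1.79, 1.71 and 1.54 at 8 h, 1.05 and 1.36 at 24 h, 1.86 and 1.33 at 48 h, and 3.29 and 3.44 at 96 h. As in UT cells, the 96 h arrays alone stood high, and the rise was 1.69 (SE 0.29, q = 0.000723). GM2A rose by 1.24 at 96 h (SE 0.21, q = 0.000555), but its 4 probes ran from -0.24 to 1.24 and their mean was not called. LAMP2, a membrane glycoprotein needed for chaperone-mediated autophagy, read 2.21, 2.29 and 1.88, then 1.78 and 2.34, then 2.53 and 2.37, and then 3.46 and 3.45 with vit C. In UT cells it read 2.58 and 2.38, then 2.38, 2.34 and 1.87, then 2.52 and 2.67, and then 3.23, 2.47 and 3.57. Its rise with vit C was 1.33 (SE 0.29, q = 0.00359), and in UT cells the change of 0.61 did not pass (q = 0.178). These are values of the brighter of its 2 probes, and with their mean LAMP2 was called at 96 h in UT cells as well. The difference between these changes was not shown: the F test of a vit C effect that differs between times gave q = 0.668 for LAMP2.

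CTSS read 3.06, 2.99 and 2.74, then 2.71 and 2.49, then 3.49 and 2.98, and then 4.12 and 4.37 with vit C, and it rose by 1.32 at 96 h (SE 0.31, q = 0.006), a call lost without vit C 96 h replicate 2 and with the mean of its 2 probes. NPC1 read -0.94, -0.90 and -0.99, then -0.65 and -0.65, then 0.52 and 0.26, and then -0.29 and -0.03. It was highest at 48 h, as in UT cells, and rose there by 1.33 (SE 0.19, q = 0.000219), a call that stayed under all 31 alternatives. CTSZ was at 1.3, 1.96 and 1.74, then 1.85 and 4.73, then 2.91 and 3.39, and then 3.56 and 3.30. Its 2 arrays at 24 h lay far apart. Its 96 h change of 1.77 (SE 0.75) was the largest rise of the list at that time and did not pass (q = 0.0923), but it was called with normexp background correction, by the methods' t-test and without either vit C 24 h array. The changes at 24 and 48 h, 1.62 and 1.48, did not pass either.

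The changes of the 37 genes in the UT and in the vit C arrays can be set side by side, since no array is in both. From 8 to 96 h, 12 genes were higher and 18 lower in both arms and 7 had opposite signs, and across the 37 genes Pearson's r was 0.88 and Spearman's rho 0.86. At 48 h r was also 0.88 and rho 0.86, and at 24 h r was 0.09 and rho 0.39. CTSZ, with changes of -0.51 in UT cells and 1.62 with vit C, lay farthest from the line of equal change at 24 h. Over all 23157 detected genes r was 0.52, 0.76 and 0.72 at 24, 48 and 96 h. Genes are not independent replicates, and these values describe the arrays only.

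**Figure D2:**
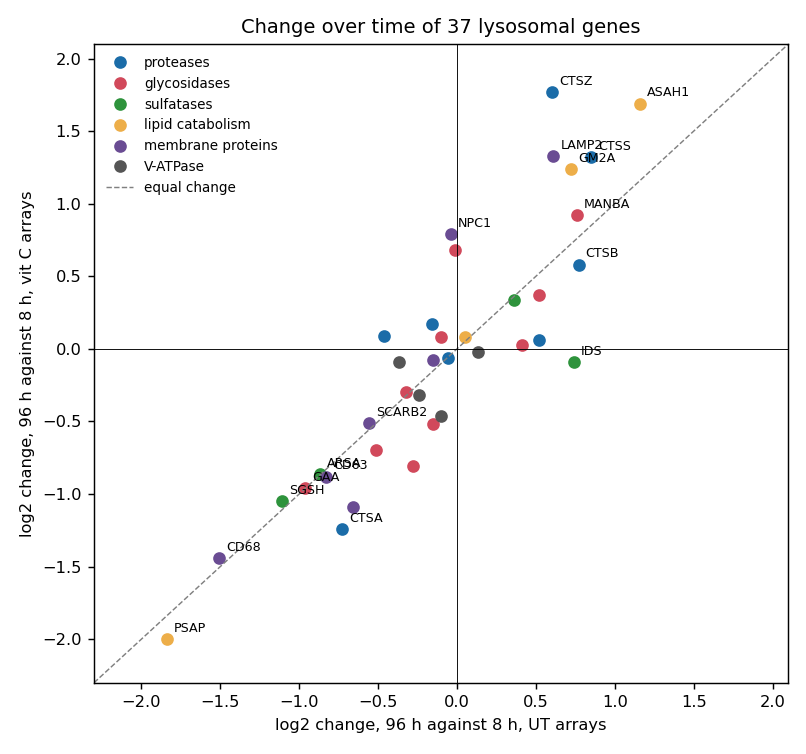
Log2 change from 8 to 96 h of the 37 lysosomal genes on UT arrays (x axis) and on vit C arrays (y axis), coloured by role, with the dashed line of equal change. PSAP (-1.84 and -2.0) and CD68 (-1.51 and -1.44) lie low on both axes and ASAH1 (1.16 and 1.69) high on both.

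**Figure D3:**
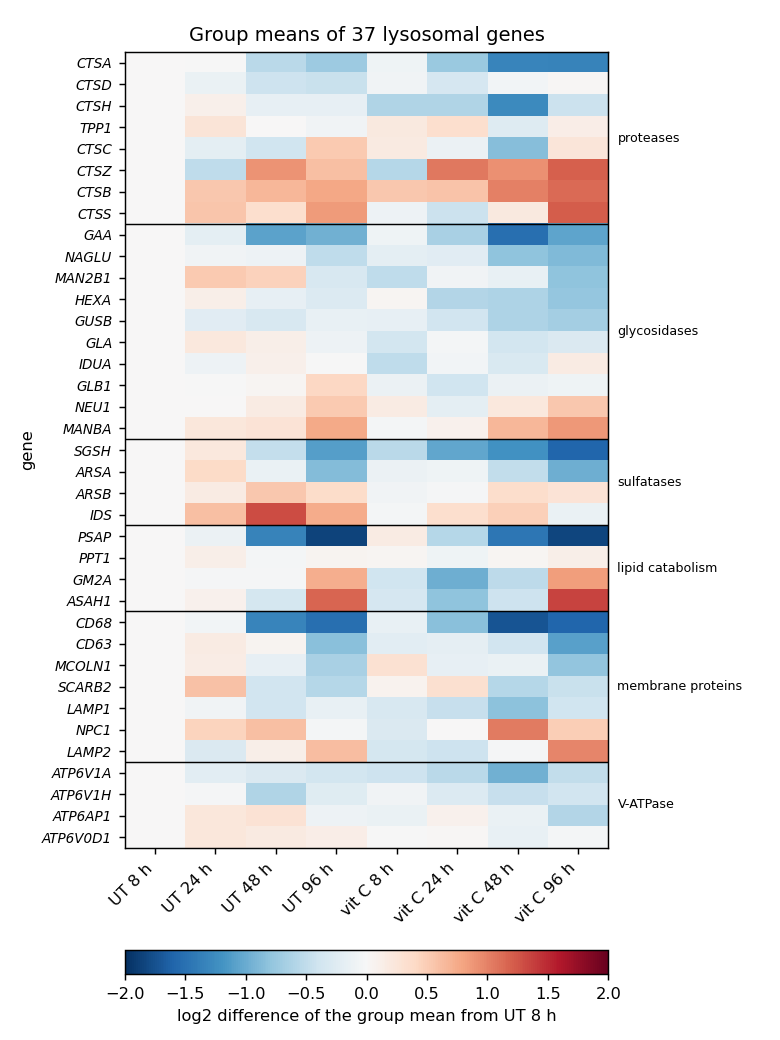
Log2 difference of each group mean from the UT 8 h mean (colour scale, -2 to 2) for the 37 lysosomal genes in rows, grouped by role, and the 8 groups in columns. PSAP is the darkest blue at 96 h in both arms, ASAH1 is red at 96 h in both arms, and IDS red at 48 h in UT cells.

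The third comparison set vit C-treated against UT cells at matched times, where the 2 arms lay on different slides. CTSH, the aminopeptidase, was the gene called: it was lower with vit C at 48 h, by 1.11 (SE 0.18, limma q = 0.00444), or 2.16-fold. No other of the 37 was called at 8, 24, 48 or 96 h. In order of time the counts were 0, 0, 1 and 0, where 0.416%, 1.21%, 2.83% and 7.04% of all gene names were called. At an unadjusted p of at most 0.05 there were 1 higher and 2 lower at 8 h, 0 and 9 at 24 h, 0 and 9 at 48 h, and 1 and 5 at 96 h. As shares, the lower ones were 5.41%, 24.3%, 24.3% and 13.5% of the 37, against 7.32%, 9.55%, 8.47% and 18.6% of all gene names and 7.87%, 7.89%, 10.2% and 11.1% of detected genes. The median difference of the 37 was -0.12, -0.28, -0.32 and -0.10 at the 4 times, against -0.08, -0.02, -0.06 and -0.05 over detected genes. Of the 37, 28, 32, 28 and 22 were lower with vit C, or 75.7%, 86.5%, 75.7% and 59.5%, against 59.8%, 52.4%, 55.7% and 54.8% of detected genes, so the share at 96 h was near that of detected genes. With slide as a fixed block 19, 26 and 22 of the 37 were lower at 8, 24 and 48 h, so that the 8 h genes were split nearly evenly, and with quantile normalization 17 were lower and 20 higher at 96 h.

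CTSH was at 6.05, 5.97 and 6.25 with vit C against 6.69 and 6.69 at 8 h, at 6.14 and 6.05 against 6.71, 6.75 and 6.90 at 24 h, and at 5.34 and 5.48 against 6.56 and 6.49 at 48 h. The arms did not overlap at these 3 times. At 96 h, vit C arrays of 6.34 and 6.18 overlapped UT arrays of 6.60, 6.66 and 6.32. The differences were -0.60 (q = 0.116), -0.69 (q = 0.0485), -1.11 (q = 0.00444) and -0.27 (q = 0.332). With slide as a fixed block the 48 h difference was -1.07 and not called. That value rests on vit C 48 h replicate 1 and on a slide offset read from UT 96 h replicate 1 against replicates 2 and 3. By the methods' t-test the 48 h difference was not called either. Without UT 96 h replicate 3 the 8 h difference of CTSH passed q as well. The q pass at 24 h was lost with 16 of the 19 arrays left out in turn and with slide or replicate number as a block.

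IDS was at 2.31, 2.44 and 2.38 with vit C at 8 h, 2.66 and 2.83 at 24 h, 2.87 and 2.90 at 48 h, and 2.37 and 2.19 at 96 h. Against the UT arrays given above, the arms overlapped at 8 h and 24 h and did not at 48 and 96 h. The differences of -0.83 at 48 h (SE 0.21, q = 0.0406) and -0.87 at 96 h (SE 0.19, q = 0.0171) passed q but not the size, where 3.49% and 9.66% of all gene names passed q, and IDS had the largest fall of the list at 96 h. The q pass of IDS at 48 h was lost with 12 of the 19 arrays left out in turn, with the mean of its probes and with slide as a fixed block or a replicate block, and at 96 h without either vit C 96 h array. Without UT 96 h replicate 3, CTSA, CTSH, NAGLU and IDS passed q at 48 h. GUSB, the glucuronidase, was the other gene that passed q at 96 h, with 5.97 ± 0.08 (SD, n = 2) against 6.51 ± 0.06 (n = 3), a difference of -0.54. Its q pass was lost with 11 of 19 arrays left out in turn. Without UT 96 h replicate 3, 2 genes were higher by q at 96 h (CTSS and NPC1) and 8 lower (CTSA, GLB1, GUSB, MAN2B1, NAGLU, IDS, SGSH and ATP6AP1), and without either vit C 96 h array 0 passed. CTSA had the next largest fall at 96 h after IDS, -0.60 (q = 0.118). The largest rises at 96 h, CTSZ by 0.60 (q = 0.691) and NPC1 by 0.54 (q = 0.0907), did not pass.

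GM2A was at -0.62, -0.86 and -0.93 with vit C at 8 h, at -1.37 and -1.37 at 24 h, at -0.89 and -0.95 at 48 h, and at 0.32 and 0.55 at 96 h. At the first 3 times every vit C array lay below every UT array, and at 96 h the arms overlapped. The 24 h difference of -0.95 (SE 0.21, q = 0.0365) passed q, as 1.59% of all gene names did, and fell just short of the size. That pass was lost with 16 of 19 arrays left out in turn and with slide or replicate number as a block, and without UT 96 h replicate 3 CTSH, CTSS, SGSH and GM2A passed. A limma F test of whether the vit C difference varied between times called 0 of the 37 genes (1.25% of all gene names), with the lowest q at 0.128 for NPC1, and CTSH, CTSS, IDS, GM2A and NPC1 had an unadjusted p of at most 0.05 (13.5%, against 17.8% of all gene names and 15.6% of detected genes). Without UT 96 h replicate 3 it called 2 genes, CTSS and GM2A.

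Averaged over the 4 times, 0 of 37 genes were called (2.77% of all gene names). At an unadjusted p of at most 0.05, 1 was higher and 15 were lower, 2.7% and 40.5% of the 37, against 10.0% and 19.4% of all gene names and 13.0% and 17.9% of detected genes. By q alone 11 were lower and 0 higher: 29.7% of the 37, where 7.85% of all gene names and 8.6% of detected genes were lower. Genes of every role were among them: the proteases CTSA (-0.55, SE 0.12, q = 0.00831) and CTSH (-0.67, SE 0.08, q = 0.000184), the glycosidases MAN2B1 (-0.55), GLA (-0.33), GLB1 (-0.29) and GUSB (-0.29), the sulfatases SGSH (-0.75) and IDS (-0.50), GM2A (-0.43), LAMP1 (-0.34) and ATP6V1A (-0.39). The others ran from -0.41 for HEXA to 0.40 for CTSZ. In all, 30 of 37 were lower, with a median of -0.26 against -0.05 over detected genes. Of the 11, 10 were lower at each of the 4 times in the fitted means.

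The UT and vit C arrays of 8, 24 and 48 h lay on different slides, so slide moves with treatment in this average. With slide as a fixed block, which cannot be fitted for the average, 9 of the 11 remained below 0 at 8, 24 and 48 h. The differences of all 11 ran from -1.10 to 0.07, and 0 passed q at 8 and 24 h. In that fit the medians of the 37 were 0.00, -0.26 and -0.12 at 8, 24 and 48 h. Its slide offset comes from the UT 96 h arrays alone, and its 48 h values rest on 1 vit C array. Leaving out UT 96 h replicate 3 gave 19 lower genes by q, a count without a share of all gene names beside it. GAA, HEXA, NAGLU, IDUA, ARSA, CD63, CD68 and ATP6AP1 were then added to the 11. With most other arrays left out the count was below 11. CTSA, CTSH, MAN2B1, IDS and GM2A passed with each array left out in turn. With the mean of a gene's probes 8 were lower, with CD63 gained and MAN2B1, GM2A, GLB1 and LAMP1 lost, and with quantile normalization 8 were lower and CTSB higher. Without UT 8 h replicate 2, UT 48 h replicate 2, either vit C 48 h array or vit C 96 h replicate 2, 6 passed.

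**Figure D4:**
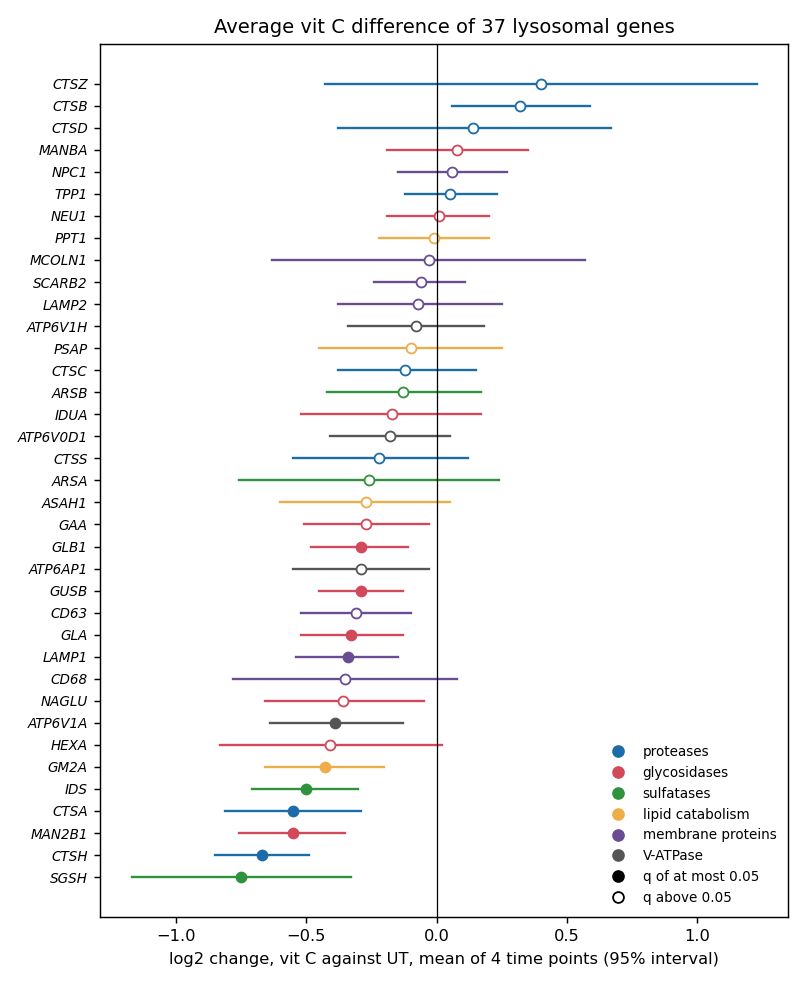
Log2 difference between vit C-treated and UT cells, averaged over 4 times, of the 37 lysosomal genes (rows, sorted), with 95% intervals from the limma fit as lines and colours by role. Filled points had q of at most 0.05, and all 11 of them lie left of 0, from SGSH at -0.75 to GLB1 and GUSB at -0.29.

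SGSH, LAMP1 and MAN2B1 are examples from 3 roles. For SGSH the vit C arrays lay below the UT arrays without overlap at 8, 24 and 48 h, and at 96 h UT replicate 3 (0.52) lay below both vit C arrays (0.85 and 1.01). LAMP1 with vit C was at 6.88, 6.87 and 7.02, then 6.61 and 6.96, then 6.42 and 6.42, and then 6.85 and 6.83, each time below every UT array. Its 2 probes went opposite ways at 8 and 48 h, and with their mean its average did not pass. MAN2B1, an alpha-mannosidase, had means with vit C of 6.74 ± 0.19, 7.17 ± 0.28, 7.08 ± 0.12 and 6.43 ± 0.02 against 7.24 ± 0.01, 7.76 ± 0.11, 7.70 ± 0.08 and 6.92 ± 0.22 in UT cells (SD, n as above). Its differences were nearly equal over the 4 times, with a range of 0.13.

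**Figure D5:**
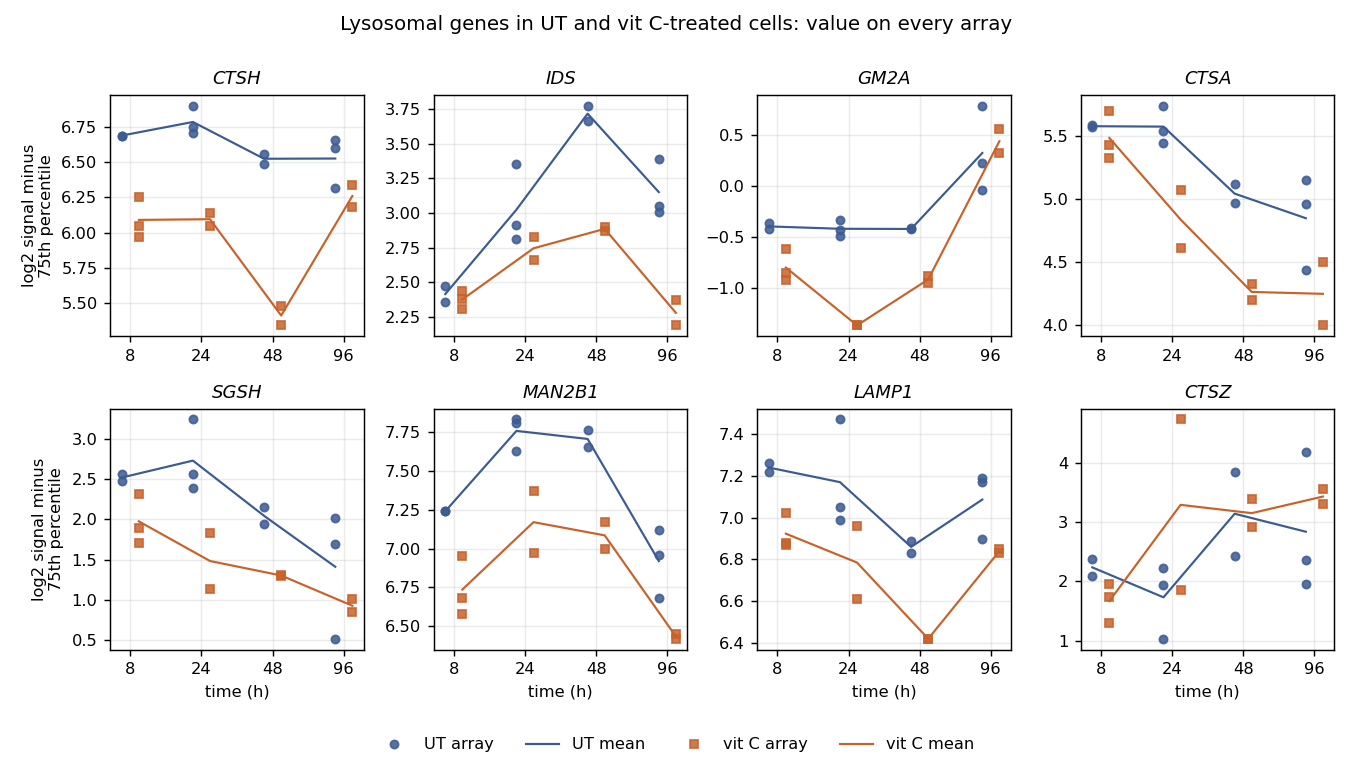
Normalized log2 signal (y axis) of 8 lysosomal genes against time in h (x axis, not to scale), a point for each array, UT circles and vit C squares, with lines through the group means. CTSH with vit C (5.34 and 5.48) lies below UT (6.56 and 6.49) at 48 h, and the CTSZ arrays of 24 h with vit C (1.85 and 4.73) lie far apart.

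Among the genes whose average was near 0 and did not pass were PPT1 at -0.01 (95% interval -0.22 to 0.20), NEU1, the sialidase, 0.01 (-0.19 to 0.20), TPP1, a tripeptidase, 0.05 (-0.12 to 0.23) and SCARB2 -0.06 (-0.24 to 0.11). PSAP, which changed most with time, was at -0.10 (-0.45 to 0.25). With vit C, PPT1 was at 8.55, 8.71 and 8.61, then 8.64 and 8.37, then 8.39 and 8.87, and then 8.79 and 8.62. ATP6V0D1 was at 3.17, 2.87 and 3.23, then 3.28 and 2.97, then 3.02 and 2.90, and then 3.04 and 3.10. These values overlap those of the UT arrays at 8, 24 and 96 h, and at 48 h ATP6V0D1 lay below both UT arrays. ATP6V1H was at 4.37, 4.56 and 4.33, then 4.00 and 4.44, then 4.05 and 4.02, and then 3.99 and 4.22. IDUA was at -1.47, -1.47 and -1.32, then -1.07 and -0.84, then -1.30 and -1.13, and then -0.83 and -0.64. ARSB was at -1.29, -1.38 and -0.95, then -0.92 and -1.42, then -0.78 and -0.79, and then -0.86 and -0.87. IDUA lay below both UT arrays at 8 and 48 h, and ARSB at 48 h. An average for CTSS depended on the probe, -0.22 on the brighter and 0.80 on the other, so its direction is not settled here. The same holds in sign for CTSB (0.32, and -0.21 at the lowest of its 3 probes), GLB1 (-0.29 and 0.12), ASAH1, LAMP2 and ATP6V1H.

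ARSA, arylsulfatase A, had a UT range of 1.26 that missed the F test (q = 0.142), with values from -1.25 to 1.60 over the 19 arrays. NAGLU, which acts on heparan sulfate, lay between 0.86 and 2.21, and ATP6AP1, an accessory subunit of the pump, between 5.03 and 6.09. MCOLN1 lay between -2.60 and -0.07, CTSD, an aspartic protease, between 1.11 and 3.13, and MANBA between 1.09 and 2.54.

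Other lysosomal genes were read from a list of 53, of which 51 were on the array and detected. At 96 h against 8 h in UT cells 5 of 51 rose and 3 fell (15.7%, against 15.8% of detected genes). The sorting receptor SORT1 (2.11, SE 0.28), the proteases CTSF (1.90) and CTSK (1.03), the nuclease DNASE2 (1.75) and the fucosidase FUCA1 (1.13) rose, and the protease CTSL1 (-2.07, SE 0.20), the cystine transporter CTNS (-1.63) and the acid lipase LIPA (-1.09) fell. Their median was -0.26, against -0.10 for the 37. In the average vit C difference 42 of the 51 were lower (82.4%, against 57.4% of detected genes), with a median of -0.22. By q 9 were lower (17.6%, against 8.6%) and 1 higher (1.96%, against 7.0%). At single times with vit C, LIPA (-1.14) and the cholesterol-binding NPC2 (-1.16) were called lower at 48 h (3.92% of the 51, against 3.64% of detected genes), and LGMN (1.71), ACP5 (1.55) and CTSK (1.06) higher at 96 h (5.88%, against 4.26% of detected genes and 7.04% of all gene names).

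Of 12 detected regulators and inhibitors, which include TFEB, TFE3, MITF and the cystatins, 0 were called by limma in UT cells at 96 h (15.8% of detected genes), and 2 higher and 3 lower had an unadjusted p of at most 0.05 (41.7%, against 36.1% of detected genes). MITF, a factor of the TFEB family, fell at 48 h by 1.03 (SE 0.19, q = 0.00294) in UT cells and by 1.01 (SE 0.17, q = 0.00107) in vit C-treated cells. MITF was the regulator called at 48 h in UT cells (8.33% of the 12, against 9.01% of detected genes), and with vit C MITF and FNIP1 (1.05 higher, SE 0.32, q = 0.0424) were called at 48 h (16.7%, against 13.5%). FNIP1, a partner of folliculin, was the regulator called for vit C against UT, 1.42 higher at 48 h (SE 0.36, q = 0.044), where 3.64% of detected genes were called.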

How the data were processed

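Agilent 1-colour arrays of 19 THP-1 samples were read. The authors extracted spot intensity values with Feature Extraction and deposited 52857 spots per array. The headers of the deposited files give 10.5.1.1 as the grid placement version, and the methods of the study name a later Feature Extraction version. The authors' deposited log2 values, shifted to each array's 75th percentile in GeneSpring, served as an alternative (column medians -3.36 to -3.19, r = 1 with the values used here on every array). The log2 processed signal of 50238 non-control probes was scaled to its array's 75th percentile, with 183 probe values marked as outliers left out. The brightest probe stood for a gene. Members have 1 probe (17 genes) to 5. A model of 8 group means was fitted with limma 3.58.1 (R 4.3.3, lmFit and eBayes, 2-sided), with Benjamini-Hochberg q over 31033 names, and tested on simulated data. Python 3.11.15 and matplotlib 3.10.9 made the plots. The number of arrays, 2 or 3 per group, limits the precision. Arrays were grouped by their labels. All 37 genes are named, and values on every array are given for the 12 called genes with the largest change, for the widest and narrowest UT range in each role, and for the 2 largest rises and falls with vit C at 96 h. The members, lists, tests and alternatives were chosen with earlier results of these data known.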

Additional observations from a re-analysis of the deposited data

How the results depend on the processing

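Counts of called genes refer to the 37. Without the minimum size of change they were 11 at 96 h against 8 h in UT cells, 13 in the UT time course, 2 for vit C against UT at each of 24, 48 and 96 h, 11 for the average and 14 at 96 h against 8 h with vit C. With slide as a fixed block 0 were called for vit C at 48 h, and the block could not be fitted for the average or for comparisons with the vit C 96 h arrays. With the mean of a gene's probes 5 were called at 96 h with vit C. With the methods' t-test 0 were called at 48 and at 96 h in UT cells and 0 for vit C against UT at 48 h, and 3 at 48 h with vit C. When genes with opposing probes were removed and any probe could call a gene, 5 were called at 96 h in UT cells (PSAP, CD68, ASAH1, LAMP2 and GM2A) and 1 for vit C against UT at 24 h (GM2A). This rule was not run for the F tests, nor the t-test for the average and the F tests. Leaving out each array gave 0 to 0, 1 to 4 and 2 to 7 called genes at 24, 48 and 96 h in UT cells, 5 to 11 in the UT time course, 0 to 0, 0 to 1, 1 to 1 and 0 to 0 for vit C against UT at 8, 24, 48 and 96 h, 0 to 0 for the average, 0 to 2 for its variation with time, and 0 to 1, 4 to 6 and 5 to 9 at 24, 48 and 96 h with vit C. The UT 96 h count was 5 without UT 96 h replicate 1 and 7 without replicate 2, and the UT time course count 11 without replicate 2. The vit C 96 h count was 5 without vit C 96 h replicate 2. At 24 h, CTSZ was called with vit C without vit C 24 h replicate 1. Where 1 array of a pair was dropped, the other was assumed to vary like the other groups. Leaving aside the rule on opposing probes, which could not show a reversal, no called gene changed sign in the alternatives run. Replicate numbers do not pair the arrays, with correlations of deviations from -0.18 to 0.11. With the replicate number as a block, 5 genes were called at 48 h with vit C and 6 in the UT time course. Quantile normalization turned the median vit C difference at 96 h to 0.04, with 20 genes higher and 17 lower, and it was -0.25 without UT 96 h replicate 3. With slide as a fixed block the UT median at 96 h was 0.06, where 96 h rests on UT 96 h replicate 1. At 24 h with vit C the median was 0.02 without vit C 24 h replicate 2, and at 48 h with vit C it was -0.3 with the mean of probes. Normexp background correction moved the median of detected genes to -0.29 at 96 h against 8 h with vit C, where that of the 37 was -0.01, and to -0.23 for vit C against UT at 96 h. Dim signals limit little here, since 36 genes were well above background on every array.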
